A study of Mus musculus with 12 samples.

Results

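Parp9, Parp10, Parp11, Parp12 and Parp14 encode members of the PARP family, and Dtx3l encodes the ubiquitin ligase that pairs with Parp9. These 6 genes were followed through ribosome-bound and unbound RNA of the mouse hypothalamus, out of 52638 entries in the deposited count table. They were matched by Ensembl identifier to their symbols in GENCODE M21 (GRCm38), and all 6 passed the filter on low counts in every comparison. The set was put together with earlier results of these data known, and its genes count as chosen by the measured difference between knockout and control ribosome-bound RNA. The values of that difference are therefore a description without a test.

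Libraries were made from adult mice of 2 genotypes. Controls (Ctrl) were homozygous for the driver, LepRb-Cre/Cre, and for a tagged ribosomal protein L10a at the Rosa26 locus, R26-GFP:L10a/GFP:L10a. Knockouts (Stat3KO) carried the same driver and tag and were in addition Stat3-flox/flox. In both genotypes the tag marks cells in which Cre, expressed with the long leptin receptor LepRb, has acted. STAT3 is a transcription factor that this receptor activates. RNA pulled down with the tagged ribosomes (bead-bound) and RNA left behind (supernatant) came from the same pools of 5 to 8 mice, which gave 3 pools per genotype and 4 groups of 3 libraries. A library is thus a pool and not an animal, and the spread given below is the spread between pools. In such bulk samples fewer cells of a type and less RNA per cell cannot be told apart, and the bead-bound RNA mixes the several kinds of cell in which the driver had been active.

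PARP enzymes attach ADP-ribose, taken from NAD, to proteins and nucleic acids. The members followed here differ from the DNA repair enzymes of the family in that they add single ADP-ribose units or are catalytically restricted. In many cell types their genes are induced by interferon through STAT transcription factors and interferon regulatory factors, and they are known for roles in antiviral defence. Parp9 and Dtx3l form a complex with ubiquitin ligase activity, Parp14 carries macrodomains that bind ADP-ribose, Parp10 and Parp12 are mono-ADP-ribosyltransferases that affect cell signalling and translation, and Parp11 is a mono-ADP-ribosyltransferase linked in human cells to the interferon receptor and to the nuclear envelope.

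Stat3 itself, the targeted gene, had a level, in CPM scaled with TMM, of 114, 149 and 159 in the Stat3KO bead-bound pools 1, 2 and 3, against 143, 175 and 179 in Ctrl. The groups overlapped and the log2 fold change was -0.24 (SE 0.160, edgeR adjusted p = 0.999). The table counts whole genes and does not separate the floxed exons, so a Stat3 transcript that lacks them cannot be told from an intact one. Lepr and the tagged L10a were higher on the beads than in the supernatant in Ctrl by 2.37 and 3.60 on the log2 scale (edgeR adjusted p = 0.000854 and 3.67e-05). Totals ranged from 20743217 to 41829907 counts per library, and in every group replicate 1 stood apart from the other two. On the Ctrl beads, for example, the chi-square per gene was 12.8 between replicates 2 and 3, and 48.4 and 72.5 between each of them and replicate 1, so counts of members are also given without replicate 1 where that moves them.

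On chromosome 16, Parp14 (ENSMUSG00000034422, 35832874 to 35871544, minus strand), Dtx3l (ENSMUSG00000049502, 35926511 to 35939151, minus strand) and Parp9 (ENSMUSG00000022906, 35938470 to 35972605, plus strand) were the only 3 protein-coding genes within a stretch of 139732 bases. Parp14 and Dtx3l were 54966 bases apart, while Dtx3l and Parp9 faced away from each other and shared 682 bases at their starts. Parp10 (ENSMUSG00000063268) lay on chromosome 15 from 76231174 to 76243441, minus strand. Parp12 (ENSMUSG00000038507, 39086410 to 39118349, minus strand) and Parp11 (ENSMUSG00000037997, 127446840 to 127494261, plus strand) lay far apart on chromosome 6. Neither strand-specific library making nor the way of counting is stated, so reads from the shared stretch of Dtx3l and Parp9 cannot be told apart. The same holds for Parp9 and the antisense gene Gm15564, which overlaps it by 5854 bases and stood at 344 CPM in Ctrl bead-bound RNA. Parp10 shares 1401 bases with Plec on the same strand.

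Start-site sequence was at hand for 3 of the 6 symbols in the RefSeq promoter table (GRCm38.p6), which spans 250 bases before to 50 bases after a start, and Parp9, Parp10 and Parp14 are named only. The stretches below are the parts upstream of the start that hold no annotated exon, read 5′ to 3′ on the gene's strand, which for Dtx3l leaves bases 250 to 180 upstream. They are shown because an interferon-responsive gene is often marked by the interferon-stimulated response element (ISRE) or the gamma-activated site (GAS) near its start. The ISRE core was searched as GAAA, any 2 bases and GAAA again, on both strands, and GAS as TTCNNNGAA, which reads the same on both strands. Capitals mark a match.
Parp11, chr6:127446590-127446839, plus strand: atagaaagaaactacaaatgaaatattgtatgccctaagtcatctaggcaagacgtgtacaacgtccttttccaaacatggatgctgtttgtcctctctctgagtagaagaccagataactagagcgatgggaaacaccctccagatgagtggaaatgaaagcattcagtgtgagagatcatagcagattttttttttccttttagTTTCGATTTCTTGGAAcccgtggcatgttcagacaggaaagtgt
Parp12, chr6:39118350-39118472, minus strand: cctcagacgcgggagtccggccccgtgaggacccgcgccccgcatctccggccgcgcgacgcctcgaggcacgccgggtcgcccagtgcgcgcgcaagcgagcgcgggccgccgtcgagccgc
Dtx3l, chr16:35939207-35939277, minus strand: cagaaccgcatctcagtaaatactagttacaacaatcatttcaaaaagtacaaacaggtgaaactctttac
The first of the 2 annotated Parp11 starts had an ISRE core match 44 to 35 bases upstream and a GAS match 37 to 29 bases upstream, which overlap each other. No match stood in the 300 bases around the other Parp11 start, nor in those of Parp12 and Dtx3l. An ISRE core match was found in 1131 of 32851 windows of this length (3.44%) and a GAS match in 2726 (8.3%). The gene counts do not tell which Parp11 start was used, and a match is a string of letters and not a measured site.

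Parp10 had the largest fold between the bead-bound genotypes among the 6 genes. Its level was 19.7, 13.7 and 18.7 CPM in the Stat3KO bead-bound pools, and 2.88, 1.99 and 2.31 CPM in Ctrl. The Stat3KO supernatants held 2.60, 2.70 and 2.81 CPM, and the Ctrl supernatants 2.21, 2.11 and 2.63 CPM. The Stat3KO bead-bound libraries stood far above all 9 others, whose values overlapped between the groups. The bead-bound means were 17.4 ± 3.24 and 2.39 ± 0.450 CPM (SD, n = 3 each), a log2 fold change of 2.86 (SE 0.226).

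Parp14, the macrodomain protein, rested on the fewest counts in Ctrl. Its level on the Stat3KO beads was 5.09, 8.00 and 9.06 CPM, against 0.750, 0.930 and 1.72 CPM on the Ctrl beads. The Stat3KO supernatants held 0.933, 2.08 and 2.53 CPM, and the Ctrl supernatants 1.24, 1.21 and 1.38 CPM. The bead-bound groups did not overlap, while the supernatant groups did. The bead-bound log2 fold change was 2.67 (SE 0.348), on counts of 18 to 317 per library.

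Dtx3l, the ubiquitin ligase, was at 17.7, 15.8 and 24.5 CPM on the Stat3KO beads and at 4.84, 5.74 and 6.73 CPM on the Ctrl beads. The Stat3KO supernatants held 4.62, 6.42 and 5.10 CPM, and the Ctrl supernatants 4.07, 3.57 and 5.01 CPM. The Stat3KO bead-bound libraries were again above every other library, and the log2 fold change between the bead-bound groups was 1.74 (SE 0.214).

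Its partner Parp9 had a smaller fold. Parp9 was at 2.55, 3.02 and 4.12 CPM on the Stat3KO beads and at 1.67, 1.54 and 1.43 CPM on the Ctrl beads. The supernatants held 2.35, 2.63 and 2.73 CPM for Stat3KO, and 2.39, 2.29 and 2.86 CPM for Ctrl. The bead-bound genotypes did not overlap, with a log2 fold change of 1.06 (SE 0.276), but the Ctrl beads, not the Stat3KO beads, were the group that lay apart from the supernatants. The count of Dtx3l per count of Parp9 was 6.94, 5.25 and 5.94 in the Stat3KO bead-bound pools, 2.90, 3.73 and 4.72 in the Ctrl bead-bound pools, 1.97, 2.44 and 1.87 in Stat3KO supernatant and 1.70, 1.56 and 1.75 in Ctrl supernatant. The pair was thus counted in unequal proportion in the 4 groups, with both bead-bound groups above both supernatant groups in every library.

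Parp12 shared with Parp9 the low values on the Ctrl beads. Its level was 13.5, 13.4 and 14.5 CPM on the Stat3KO beads and 6.30, 6.35 and 6.91 CPM on the Ctrl beads, while the supernatants held 9.10, 10.5 and 10.4 CPM for Stat3KO, and 10.8, 9.46 and 8.81 CPM for Ctrl. The supernatants thus lay between the bead-bound groups, and the bead-bound log2 fold change was 1.08 (SE 0.164).

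Parp11 was the most even of the 6. It was at 41.6, 54.4 and 61.8 CPM on the Stat3KO beads and at 44.1, 48.2 and 47.5 CPM on the Ctrl beads, while the supernatants held 33.3, 40.8 and 40.9 CPM for Stat3KO, and 36.5, 39.6 and 42.4 CPM for Ctrl. The bead-bound genotypes overlapped and differed by 0.17 on the log2 scale (SE 0.165), which makes Parp11 the member whose genotypes lay closest on the beads. The 6 members summed to 100, 108 and 133 CPM on the Stat3KO beads and to 60.5, 64.8 and 66.6 CPM on the Ctrl beads.

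**Figure D1:**
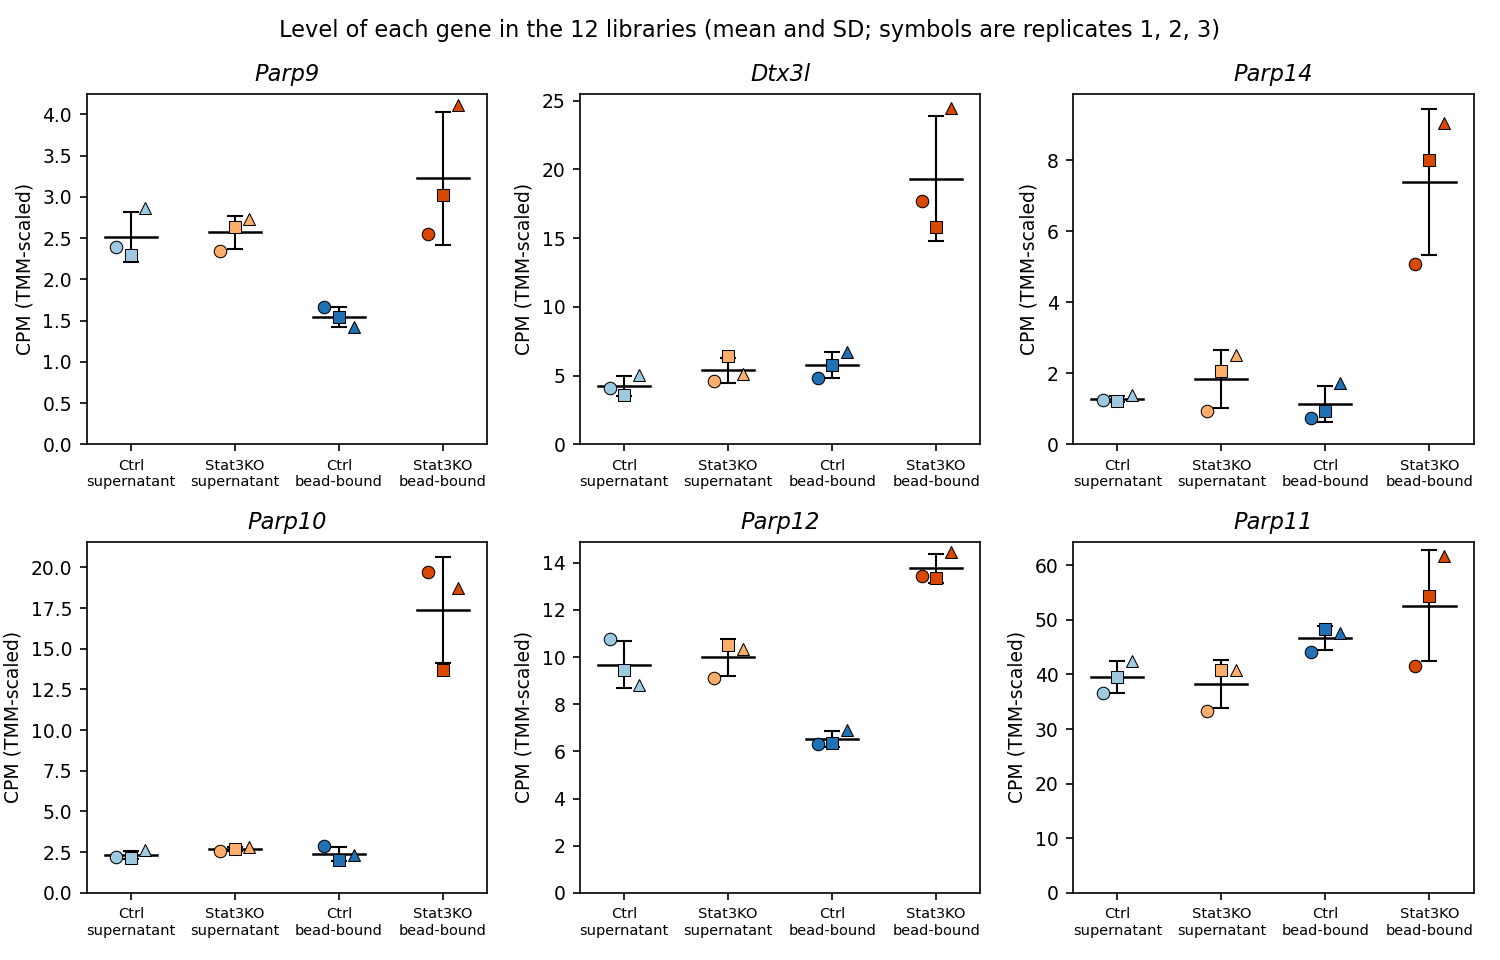
Level of each member in every library (CPM) by group, with circles, squares and triangles for replicates 1, 2 and 3, and bars for the mean and SD. For Parp10, Parp12, Parp14 and Dtx3l the Stat3KO bead-bound points lie above all other libraries, while for Parp11 the bead-bound genotypes overlap.

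Over the 6 members, 4 (Parp10, Parp12, Parp14 and Dtx3l) were past adjusted p under 0.05 in edgeR's quasi-likelihood test between the bead-bound genotypes, all higher in Stat3KO, where 0.421% of the 17354 genes tested were. In 5 of 6 the Stat3KO bead-bound libraries were all above the Ctrl ones, as in 5.1% of all genes. The median log2 fold change of the members was 1.41, and that of all genes was -0.01. Members just inside and outside the call were Parp12 and Parp9, at log2 fold changes of 1.08 and 1.06. The SE was 0.164 for Parp12 and 0.276 for Parp9. Parp9 rested on 40 to 53 counts per Ctrl bead-bound library, and Parp12 on 151 to 257. The SE holds counting error as well as spread between pools, and their parts were not tested. The counts of called members hold the contrast by which the genes were chosen, and nothing is read from them. Parp12 lost its call in 4 of the 6 fits without 1 library, those without replicate 2 or 3 of either group. Without replicate 1 of both groups 5 of 6 were called, but calls over all genes then went from 78 to 1167, with 1.56% of genes higher in Stat3KO.

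The supernatant, whose values the choice is taken not to have used, was tested between genotypes. None of the 6 members passed in edgeR's quasi-likelihood test, none had an unadjusted p under 0.05, DESeq2 called 0, and in all 6 the groups overlapped. Among all genes 2 of 18547 passed (0.0108%), and the genotypes did not overlap in 6.4% (Stat3KO higher) and 6.25% (Stat3KO lower). The largest log2 differences were 0.50 for Parp14 (SE 0.335, adjusted p = 0.878) and 0.34 for Dtx3l (SE 0.193, adjusted p = 0.849). Parp10, with the largest difference on the beads, differed by 0.21 in the supernatant (SE 0.198, adjusted p = 0.901). Parp9, Parp11 and Parp12 differed by 0.01, -0.06 and 0.04, with signs that turned when single libraries were left out. The supernatant holds RNA of all cells of the block, so a difference within LepRb cells enters it only as far as their RNA was left behind. Marker sums of microglia, astrocytes and oligodendrocytes also differed between the supernatant genotypes, as given below.

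Within Ctrl, each pool gave a bead-bound and a supernatant library. The main fit between fractions did not pair them by pool, and a fit with the pool as a block was an alternative. Parp12 was lower on the beads than in the supernatant by 0.56 on the log2 scale (SE 0.142, adjusted p = 0.0140), with bead to supernatant ratios of 0.586, 0.671 and 0.785 in pools 1, 2 and 3. Parp9 was lower by 0.71 (SE 0.219, adjusted p = 0.0311), with ratios of 0.698, 0.672 and 0.498. In both the bead-bound library was below its own supernatant in every pool. Both calls are close to the threshold in this unpaired fit. Parp12 missed it without Ctrl bead-bound replicate 2 (adjusted p = 0.0527), and Parp9 held it in 1 of the 6 fits that left out a library, with adjusted p from 0.0341 to 0.140. Over the 18036 genes tested 21.2% were lower and 20.7% higher, so 2 of 6 lower members are near the background. The choice of the genes favours low values on the Ctrl beads, so the adjusted p of Parp9 and Parp12 are a description.

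The other 4 members did not pass in this fit. Parp11 was 0.24 higher on the beads (SE 0.100, adjusted p = 0.0844), with ratios of 1.21, 1.22 and 1.12, and Dtx3l was 0.45 higher (SE 0.196, adjusted p = 0.0942), with ratios of 1.19, 1.61 and 1.34. With the pool as a block, which the shared tissue of the fractions allows, both passed, at adjusted p = 0.0196 for Parp11 and 0.0280 for Dtx3l. That fit called 4 members in all, and 58.5% of all genes in either direction. Parp10 had ratios of 1.30, 0.940 and 0.881, and Parp14 of 0.606, 0.769 and 1.24, on both sides of 1. The Ctrl bead-bound libraries are also the low side of the contrast by which the genes were chosen, so low Ctrl bead-bound values are favoured by that choice.

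In Stat3KO the same ratios were 7.60, 5.07 and 6.68 for Parp10, 5.46, 3.85 and 3.59 for Parp14 and 3.83, 2.47 and 4.80 for Dtx3l. They were 1.48, 1.27 and 1.40 for Parp12, 1.25, 1.33 and 1.51 for Parp11 and 1.09, 1.15 and 1.51 for Parp9. Every member was above 1 in every Stat3KO pool, whereas in Ctrl only Parp11 and Dtx3l were. The log2 fold change of bead-bound over supernatant RNA was 2.68 for Parp10, 2.01 for Parp14, 1.83 for Dtx3l, 0.45 for Parp11, 0.45 for Parp12 and 0.32 for Parp9. In edgeR without the pool as a block 4 of 6 were called higher and 0 lower, where 14.7% and 17.3% of 18107 genes were. The difference of this log2 ratio between Stat3KO and Ctrl was 2.65 for Parp10, 2.16 for Parp14, 1.39 for Dtx3l, 1.04 for Parp9, 1.03 for Parp12 and 0.22 for Parp11. Of these, 2 (Parp10 and Parp12) were called without the block, where 0.193% of 19122 genes were called higher. Parp12 lost the call in every fit without 1 library. With the block 4 members were called, and 59 of the 19122 genes. All of these values contain the Stat3KO bead-bound libraries by which the genes were chosen, so they are a description.

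**Figure D2:**
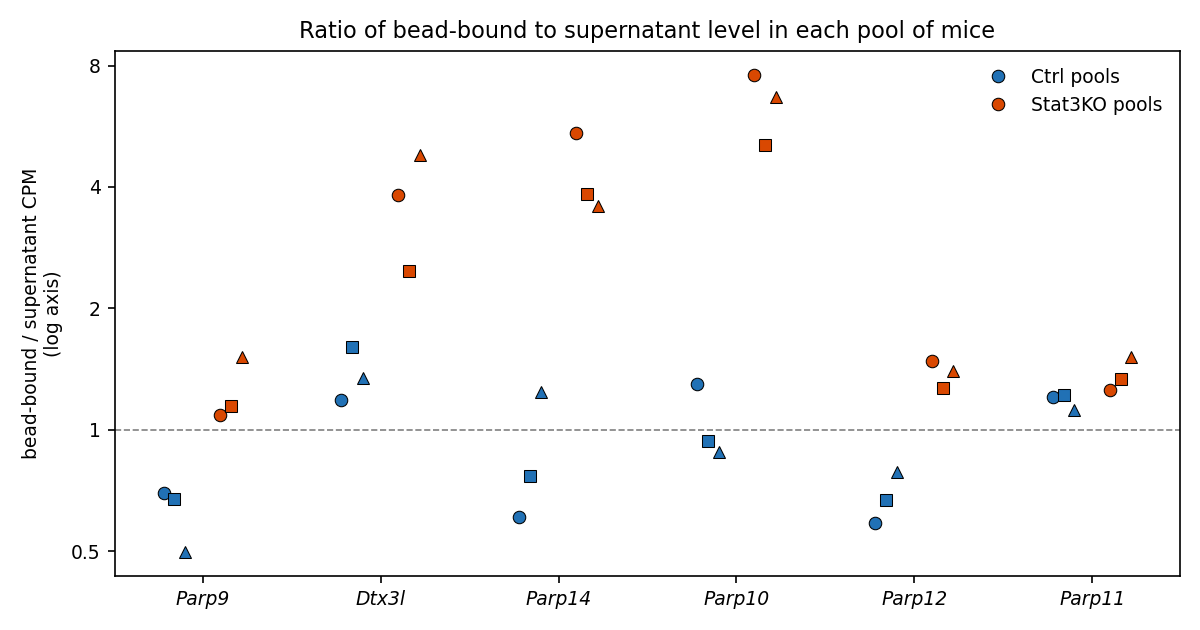
Ratio of bead-bound to supernatant CPM (log axis) in each of the 3 pools of Ctrl and Stat3KO for the 6 members, with a line at 1. In Stat3KO the points of every member lie above 1, and in Ctrl those of Parp9 and Parp12 lie below it.

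Compared per kilobase of exon, the order of the members on the Ctrl beads was Parp11 at 6.64 CPM per kb, Parp12 at 1.63, Dtx3l at 1.01, Parp10 at 0.560, Parp9 at 0.317 and Parp14 at 0.122. No neighbours in that order overlapped over the 3 pools. On the Stat3KO beads Parp11 was at 7.49 CPM per kb, followed by Parp10 at 4.07, Parp12 at 3.44 and Dtx3l at 3.38, whose libraries overlapped from one to the next. Parp14 at 0.794 and Parp9 at 0.662 CPM per kb came last and also overlapped. Among the 17 genes made up of the PARP family and Dtx3l, Parp10 thus stood in place 15 on the Ctrl beads and in place 7 on the Stat3KO beads. The places of Parp11 (5 and 4), Parp12 (9 and 9), Dtx3l (11 and 10), Parp14 (17 and 16) and Parp9 (16 and 17) differed by at most 1. In both supernatants the order of the 6 was the same as on the Ctrl beads, from 5.45 CPM per kb for Parp11 to 0.198 for Parp14 in Stat3KO and from 5.62 to 0.137 in Ctrl, and Parp10 overlapped Parp9 in Ctrl.

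**Figure D3:**
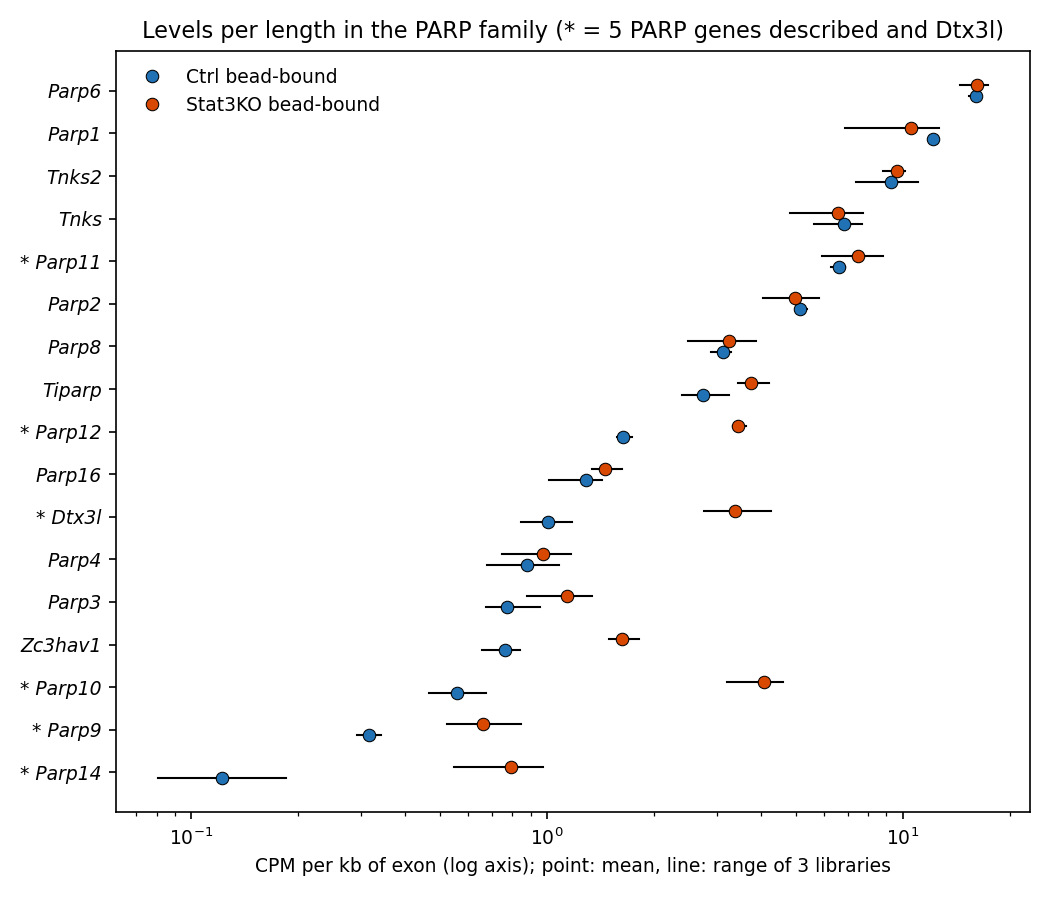
Level per kilobase of exon (CPM per kb, log axis) of the 17 genes in bead-bound RNA of Ctrl and Stat3KO, ordered by Ctrl, with points for the mean and lines for the range over 3 pools. The 6 members carry an asterisk, and Parp10 moves from 0.560 on the Ctrl beads to 4.07 on the Stat3KO beads, the widest step of the plot in places.

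The other genes of the ADP-ribose pathway were taken as whole lists, chosen like the members with earlier results known. Their p-values between the bead-bound genotypes carry that limit, as do those of the interferon signalling genes below. Of the other 11 genes of the PARP family, 1 rose on the Stat3KO beads and none fell, where 0.421% and 0.0288% of all genes did. Zc3hav1, which encodes the RNA-binding antiviral protein ZAP, had levels of 10.3, 9.73 and 11.8 CPM on the Stat3KO beads and of 5.17, 4.29 and 5.46 CPM on the Ctrl beads. Its log2 fold change was 1.09 (SE 0.189, edgeR adjusted p = 0.0360). The groups lay well apart, yet the call was lost in all 6 fits without 1 library, at adjusted p from 0.0563 to 0.300. Without replicate 1 of both groups it was 0.000793, in a fit that called 1167 genes in all. Tiparp, a mono-ADP-ribosyltransferase induced by the aryl hydrocarbon receptor, differed by 0.46 (SE 0.181, unadjusted p = 0.0298, adjusted p = 0.999). Parp1 and Parp2, the DNA repair enzymes, differed by -0.20 and -0.04, and the tankyrases Tnks and Tnks2 by -0.06 and 0.05. The median of these 11 genes was 0.05.

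**Figure D4:**
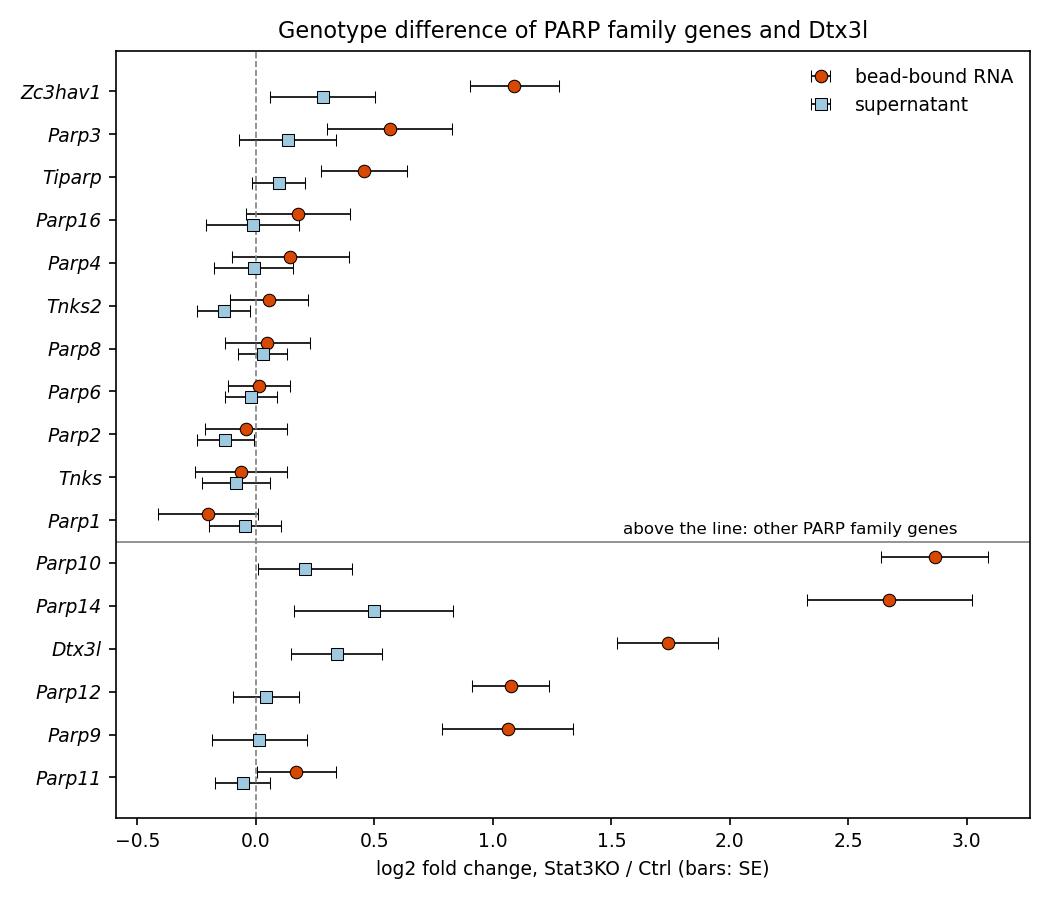
Log2 fold change of Stat3KO over Ctrl in bead-bound RNA (circles) and supernatant (squares) for the 6 members, below the line, and the other 11 genes of the PARP family, above it, with bars for the standard error. In bead-bound RNA Zc3hav1 at 1.09 is the one other family gene that passed the test, and in the supernatant the genes lie between -0.14 and 0.50.

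None of the other 4 Deltex ligases (Dtx1 to Dtx4), relatives of Dtx3l, passed between the bead-bound genotypes, and none had an unadjusted p under 0.05. Dtx1, a regulator of Notch signalling, had bead-bound means of 158 ± 9.62 CPM for Stat3KO and 158 ± 34.1 CPM for Ctrl (SD, n = 3 each). Of the 12 genes that remove or read ADP-ribose 0 passed and 0 had an unadjusted p under 0.05. Of 18 tested genes that supply or use NAD 0 passed, and 2 had an unadjusted p under 0.05. These were Nampt, the rate-limiting enzyme of NAD salvage, at 0.48 (SE 0.160, adjusted p = 0.889), and Bst1, an enzyme that consumes NAD, at 1.12 (SE 0.495, adjusted p = 0.999). DESeq2 called 0 genes in each of these 3 lists. In edgeR 0.421% of all genes were called higher and 0.0288% lower, so 0 calls in lists of this size are near the background. The medians of the lists were -0.07, -0.03 and -0.01.

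Of 11 genes that carry the interferon signal to such targets, 3 rose on the Stat3KO beads and 8 did not pass. Of all genes 0.421% rose and 0.0288% fell. Irf7, which amplifies the type I response, was at 11.3, 10.9 and 9.87 CPM on the Stat3KO beads and at 1.88, 2.15 and 2.07 CPM on the Ctrl beads, a log2 fold change of 2.39 (SE 0.199, edgeR adjusted p = 0.000166). The groups did not overlap. Irf1 rose by 1.47 (adjusted p = 0.00591), and Irf9, the DNA-binding partner of STAT proteins in the type I response, rose by 1.10 (adjusted p = 0.00438, but 0.0708 without Ctrl bead-bound replicate 2). Stat2 was 0.67 higher (SE 0.237, adjusted p = 0.981), and the receptor chain Ifnar2 0.40 lower in Stat3KO, at a log2 fold change of -0.40 (SE 0.174, adjusted p = 0.999). Over all 11 the median was 0.05.

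In the supernatant 0 genes of the 5 lists passed between genotypes in edgeR, 2 had an unadjusted p under 0.05 (Bst1 and Irf7), and DESeq2 called 0. Over all genes the share called by edgeR was 0.0108%. Zc3hav1 differed in the supernatant by 0.28 (SE 0.220, adjusted p = 0.894) and Irf7 by 0.60 (SE 0.251, adjusted p = 0.771).

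Within Ctrl, 3 of the 11 other PARP genes were lower on the beads than in the supernatant and 0 were higher. These were Tiparp at -0.96 (adjusted p = 0.00178), Tnks at -0.80 (adjusted p = 0.00558) and Tnks2 at -0.63 (adjusted p = 0.0115, lost in 2 of 6 fits without 1 library). The direction is that of Parp9 and Parp12 in Ctrl. Of all genes 21.2% were called lower there, so 3 of 11 is near the background. Of the Deltex ligases, Dtx1 at 0.73 and Dtx3 at 0.53 were higher on the beads (adjusted p = 0.00886 and 0.0201), where Dtx3l stood at 0.45 without passing. Of the 12 erasers and readers, 5 were higher and 1 lower, with Macrod1, a hydrolase that removes single ADP-ribose units, at 0.94 (adjusted p = 0.00685) and Trpm2, an ion channel gated by ADP-ribose, at -0.57 (adjusted p = 0.00386). Of the 18 NAD genes 2 were higher and 2 lower, and of the 11 interferon signalling genes 4 were higher, with Irf9 at 1.07 (adjusted p = 0.00118). In all, 19 of these 56 genes passed (33.9%), where 41.9% of all genes did, and 31 passed with the pool as a block (55.4%), where 58.5% of all genes did. In Stat3KO 17 passed (30.4%), against 32.1% of all genes, and 27 with the block (48.2%), against 49.7%. The shares of the lists were thus near or below those of all genes. In Stat3KO Tiparp, Tnks and Tnks2 were again lower on the beads, while Parp9 and Parp12 were not. Zc3hav1 was higher on the Stat3KO beads than in their supernatant by 0.90 (SE 0.229, adjusted p = 0.0166).

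The genes next to the members were examined because 3 of the 6 lie side by side. Among the 8 protein-coding neighbours that are not members, none passed between genotypes on the beads, none had an unadjusted p under 0.05, DESeq2 called 0, and log2 fold changes ranged from -0.21 to 0.41. With 0.421% of all genes called higher by edgeR and 0.0288% lower, 0 calls among 8 genes are near the background. Kpna1, an importin beside Parp9, differed by -0.08, and Plec, the cytoskeletal linker that shares bases with Parp10, by -0.21. Gm15564, which overlaps Parp9, had means of 390 and 344 CPM on the Stat3KO and Ctrl beads.

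Likeness of pattern was measured by Pearson's r of log2 CPM over the 12 libraries among 13395 genes. These libraries share pools and the group structure, so r describes the pattern and carries no test. They also hold the bead-bound contrast by which the members were chosen. That choice favours likeness to genes that are high on the Stat3KO beads. Likeness to genes other than the members was measured over all 12 libraries only. The genes most like the mean of the members were Irgm2 (r = 0.964), Samd9l (0.952), Ifit1 (0.948), Gbp3 (0.948), Gbp7 (0.947) and Ddx58 (0.947). For 5 members the nearest gene is given, which was Irgm2 for Parp10 (0.989), Samd9l for Parp14 (0.955), Ifit2 for Parp12 (0.942), Herc6 for Parp9 (0.899) and Fem1b for Parp11 (0.952). Among the members themselves, Parp10 and Dtx3l were most alike (0.953) and Parp11 and Parp12 least (0.214). Parp9 was closer to Parp12, on another chromosome (0.880), than to its head-to-head neighbour Dtx3l (0.524). In the 9 libraries other than the Stat3KO bead-bound ones, Parp9 and Parp12 stood at 0.875, Parp9 and Dtx3l at -0.359, and Parp10 and Dtx3l at 0.192.

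Markers of cells that could carry interferon-induced RNA were summed. The 10 microglial markers summed to 30.6 to 58.9 CPM on the Stat3KO beads and 41.9 to 67.3 CPM on the Ctrl beads, and to 79.0 to 115 and 116 to 131 CPM in the Stat3KO and Ctrl supernatants. Of these 10 genes 0 were called between the bead-bound genotypes, with a median log2 fold change of -0.32. The 7 leukocyte markers summed to 1.46 to 5.44 CPM on the Stat3KO beads and 2.93 to 4.67 CPM on the Ctrl beads, with 2 of the 7 at 0 in each group. The 7 endothelial markers summed to 15.9 to 144 CPM and 54.5 to 133 CPM. These 3 sums overlapped between the bead-bound genotypes, and the microglial sum was lower on the beads than in the supernatant in both. Between the supernatant genotypes the microglial sum was lower in Stat3KO without overlap. So were those of astrocytes (365 to 458 against 503 to 582 CPM) and oligodendrocytes (3897 to 4386 against 4727 to 6228 CPM). Of the genes in these lists 0 were called there, where 0.0108% of all genes were, and the sums of the other lists overlapped. The 6 markers of LepRb neurons summed to 1621 to 3424 CPM on the Stat3KO beads and 1650 to 1737 CPM on the Ctrl beads. Between the bead-bound genotypes 4 of the 6 were called, 2 higher and 2 lower in Stat3KO, with a median log2 fold change of 0.06. Of all genes 0.421% were called higher and 0.0288% lower. The part of the marked cells in the members' values was not tested. Parp9 and Parp12 were lower on the Ctrl beads than in the Ctrl supernatant together with the microglial sum, and also with those of astrocytes (188 to 359 against 503 to 582 CPM), oligodendrocytes (1537 to 2672 against 4727 to 6228 CPM), leukocytes (2.93 to 4.67 against 11.8 to 14.8 CPM) and blood (14.4 to 19.5 against 28.7 to 38.1 CPM). The neuron sum was higher on the Ctrl beads (8295 to 8704 against 6647 to 7367 CPM). So were those of endothelium (19.1 to 22.4 CPM in the Ctrl supernatant) and LepRb neurons (78.0 to 81.9 CPM there). On the Stat3KO beads the sums of astrocytes (171 to 229 CPM) and oligodendrocytes (1421 to 2128 CPM) were also below their supernatant. There Parp9 and Parp12 were above their own supernatant in every pool. The part of these cells in the values of Parp9 and Parp12 was not tested.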

How the data were processed

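The values the authors deposited are raw gene counts, not normalised. STAR 2.5.3a and mm10 are named as aligner and build in the submitters' processing notes. How reads were counted, with which annotation and strand setting, is not given in the sources used. Per the labels' protocols, a block with 3 mm edges was taken, RNA had an integrity number of at least 8, and reads ran 50 cycles.

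GENCODE M21 matched 52403 identifiers and left 233 unmatched. The test was that of edgeR 4.0.16 (R 4.3.3), using counts scaled by TMM, filterByExpr (minimum count 10, minimum total 15), a quasi-likelihood fit of the libraries compared, and Benjamini-Hochberg adjusted p under 0.05, 2-sided, over all genes. The main fits held no pool or replicate block. The SE is the size of a log2 fold change over the square root of F. Likeness used log2 CPM with a prior count of 2. DESeq2 1.42.0, RLE factors, library totals, no filter, 1 fit over all libraries, a replicate block, and leaving out libraries were the alternatives. The tests were checked on simulated counts.

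The members, the lists and the leaving out of replicate 1 were chosen with earlier results of these data known. The rule for names covers the members, list genes that passed and the genes most like the members; other list genes were named after their values were seen. Bead-bound and supernatant libraries of 1 number share a pool per the series' design, and their deviations from the group means correlated at 0.428 to 0.665. No pair of replicates was within sampling noise. Without molecular identifiers, depth bears on counting error alone. An item of the interferon signalling list is not reported here, and the list's counts leave it out.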

Additional observations from a re-analysis of the deposited data

Results flagged for a closer look

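An interaction term over all 12 libraries compared the genotype difference on the beads with that in the supernatant. In edgeR without the pool as a block, it was called larger on the beads for Parp10, Parp12 and Irf7. The log2 values were 2.65, 1.03 and 1.78, and 0.193% of 19122 genes were called higher. Parp14 (2.16) and Dtx3l (1.39) had larger values than Parp12 and were not called in that fit, while DESeq2 called both. The values of all these members contain the contrast by which they were chosen, and Parp12 lost the call in each fit without 1 library. For Irf7 the adjusted p in edgeR was 0.0104, but its list too was chosen with earlier results of these data known.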

How the results depend on the processing

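Over the 6 members and 5 comparisons, 420 alternative values were computed, of which 357 kept direction and side of the threshold, 16 moved past it, 32 fell short of it and 15 turned sign. All 15 turns were in small differences. In the supernatant between genotypes, Parp9 was at -0.00115 with library totals and at -0.0507 to 0.127 without 1 library, Parp11 at -0.115 to 0.0317 and Parp12 at -0.0192 to 0.113. Between fractions in Ctrl, Parp10 was at -0.105 with library totals, at -0.149 without replicate 1 of any group and at -0.114 to 0.169 without 1 library. Parp14 was at 0.0288 without replicate 1 of any group and at -0.579 to 0.0534 without 1 library. The cause was not tested.

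Members called between fractions in Ctrl went from 2 to 1 with no filter, to 4 with the pool as a replicate block, and to 0 to 3 without 1 library (0 without Ctrl bead-bound replicate 2). Members called for the ratio difference went from 2 to 4 with DESeq2 and 4 with the block, to 1 without replicate 1 and to 1 in every fit without 1 library. Pathway genes called between fractions went from 19 to 31 with the block in Ctrl (12 to 26 without 1 library) and from 17 to 27 in Stat3KO (9 to 19), while with the block calls over all genes went from 7564 to 10544 and from 5804 to 8999. For the ratio difference they went from 1 to 3 with no filter, 3 with DESeq2 and 4 with the block (1 to 2 without 1 library). Between bead-bound genotypes 4 were called, and 2 to 4 without 1 library (2 without Ctrl bead-bound replicate 2). Genotypes share only replicate numbers (deviations correlated at -0.085 to 0.347), and with that block Zc3hav1 was not called (adjusted p = 0.0611). Over all genes the bead-bound contrast went from 78 calls to 183 with no filter and 124 with DESeq2, the supernatant contrast from 2 to 203 and 43, and the ratio difference from 39 to 97 and 63 (59 with the block). Without replicate 1 of any group these were 1167, 988 and 44. Members called between bead-bound genotypes went from 4 to between 3 and 4 without 1 library. The 3 pools per group and counts as low as 18 for Parp14 limit what differences can be detected.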
